A study of Rattus norvegicus with 12 samples.

Results

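The core circadian clock genes were followed in 12 one-colour arrays of fetal rat pituitary. They were taken as Arntl, Clock, Npas2, Per1, Per2, Per3, Cry1, Cry2, Nr1d1 and Dbp, and every probe that is not a control spot and carries 1 of these gene names was used. All 10 genes were on the array, with 17 of its 30367 probes, and all 17 probes passed the filter on dim signal that left 22430 probes and 19381 genes. The pituitaries came from Wistar rat fetuses at gestational day 18, in 4 groups of 3 arrays: male TCDD, male control, female TCDD and female control. TCDD is a dioxin and a ligand of the aryl hydrocarbon receptor, and here it reached the fetus through the exposed mother. The labels used here give no dose, no day or route of dosing and no clock hour at which tissue was taken. They are also silent on pooling of glands and on litters, so p-values measure the spread between these samples.

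The circadian clock is a feedback loop of transcription that runs in most cells with a period of about a day. CLOCK or its relative NPAS2 pairs with BMAL1, the product of Arntl, and the pair binds E-box elements and activates the Per and Cry genes, Nr1d1 and Dbp. PER and CRY proteins then inhibit the pair. NR1D1, a nuclear receptor also called REV-ERB alpha, represses Arntl at ROR elements, and DBP activates genes through D-box elements. CLOCK, NPAS2 and BMAL1 belong to the same bHLH-PAS family as the aryl hydrocarbon receptor. In the adult pituitary these genes cycle over the day, so that a single sampling hour shows 1 phase only.

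Each level below is the log2 of the processed intensity relative to the 75th percentile of its array, from the brightest probe of the gene, and levels of different genes are not compared because they come from different probes. Adjusted p-values of differences come from limma with Benjamini-Hochberg adjustment over 19381 genes, with a threshold of 0.05 for a call. Every member probe was well above background on all 12 arrays, except the dimmer Clock probe, which was so on 11. Of 15 anterior pituitary markers 12 were well above background on every array, and their mean level lay between -1.44 and -0.08 on TCDD arrays and between -0.50 and 0.15 on control arrays. The exposure showed in Ahrr, the repressor of the aryl hydrocarbon receptor, which was higher in TCDD pituitaries by 5.98 in males (adjusted p = 0.000155) and by 5.86 in females (adjusted p = 0.00019) on the log2 scale. Cyp1a1, a cytochrome P450 that the receptor induces, was well above background on all 6 TCDD arrays and on 0 control arrays. Ahr itself differed by -0.27 and its partner Arnt by 0.04 over both sexes, with adjusted p of 0.67 and 0.942.

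The arrays fell into 2 sets that cross the groups. On 6 arrays the mean level of 23 markers of sensory ganglion neurons, called the ganglion signal below, was between -0.03 and 1.27 (male TCDD 1 and 2, female TCDD 1 and 3, male control 2 and female control 2), and on the other 6 it was between -3.19 and -2.71. Pou4f1, a transcription factor of sensory neurons, was well above background on all 6 of the first set and on 0 of the second. It is 1 of the 23 markers that made the split, so it is no separate check of it. The first set thus held 4 TCDD and 2 control arrays, and over the groups the marker mean ran from -3.03 to 1.27 on TCDD arrays and from -3.19 to 0.51 on control arrays. Of the 23 markers, 21 were well above background on all arrays, so none of these was at background in the second set. The mean of 8 peripheral glia markers moved with the signal, at -1.52 to -0.17 on the first set and -2.59 to -2.10 on the second. Slides were spread unevenly over the groups. Slide 1 held male TCDD 1 with the 3 male controls. Slide 2 held male TCDD 2 and 3 with female controls 1 and 2. Slide 3 held the 3 female TCDD arrays with female control 3. Male TCDD 2 and 3 thus shared no slide with male controls, and female controls 1 and 2 shared none with female TCDD arrays. Slide and exposure therefore cannot be fully told apart.

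No core clock gene was called in any comparison. In limma fits, 0 of 10 members passed in males, where 0.0103% of all genes did. The count was 0 of 10 in females, with 0.0103% of all genes called, and 0 of 10 over both sexes, with 0.0206% called. At an unadjusted p below 0.05 there were 0 members in males (9.41% of all genes), 1 in females (2.64%) and 2 over both sexes (6.45%), namely Nr1d1 in females and Nr1d1 and Per3 over both sexes. The level was lower in TCDD pituitaries for 8 of 10 members over both sexes, with a median difference of -0.11, against 55.4% of all genes and a median of -0.02. In females 9 of 10 members were lower (58.9% of all genes), with a median of -0.19 against -0.03. In males 7 of 10 were lower (51.1% of all genes), with a median of -0.11 against -0.01. These comparisons share arrays with each other, since the value over both sexes is the mean of the male and female differences.

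**Figure D1:**
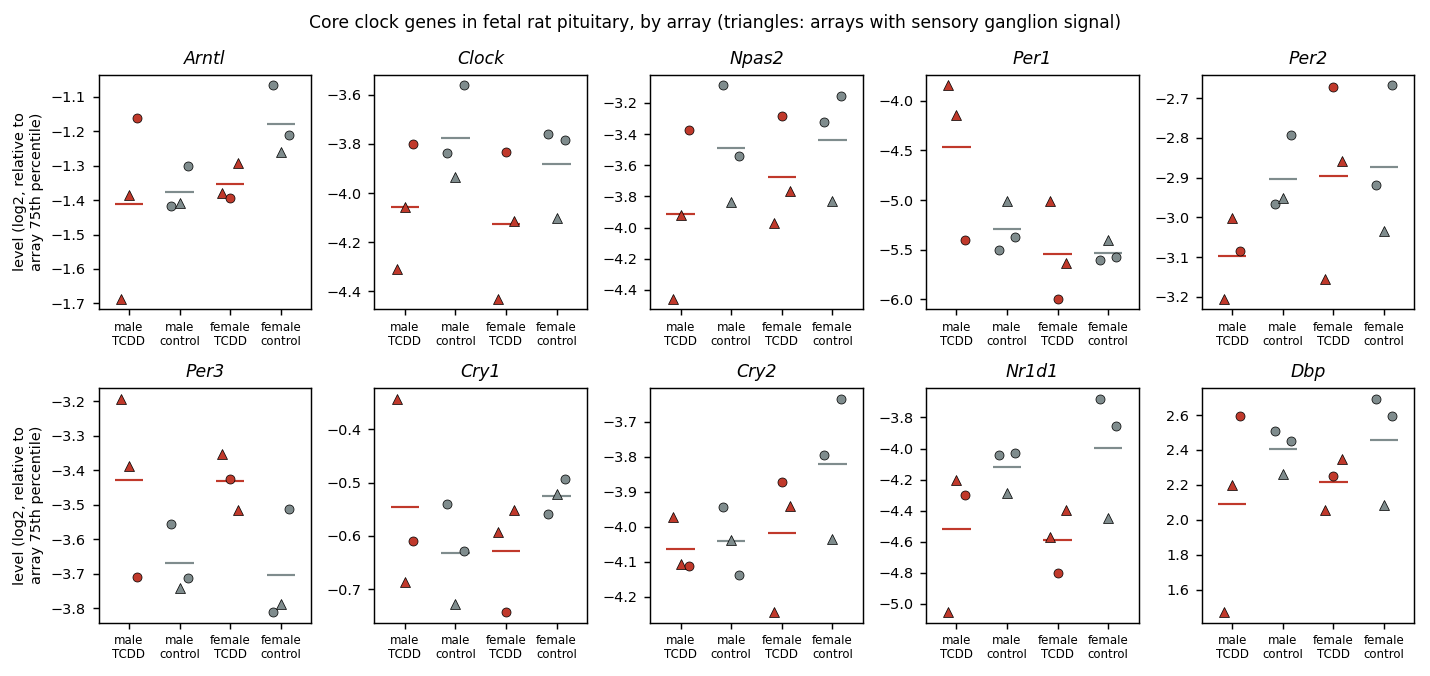
Level of each core clock gene on each of the 12 arrays (vertical axis, log2 over the 75th percentile of the array, scaled for each gene), in male TCDD, male control, female TCDD and female control pituitaries. Horizontal lines are group means, and triangles are the 6 arrays with sensory ganglion signal. In males the 3 TCDD points of Per2 lie below the 3 control points, in females those of Arntl do, and the Per1 points of male TCDD 1 and 2 stand at -3.84 and -4.15 above all others.

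**Figure D2:**
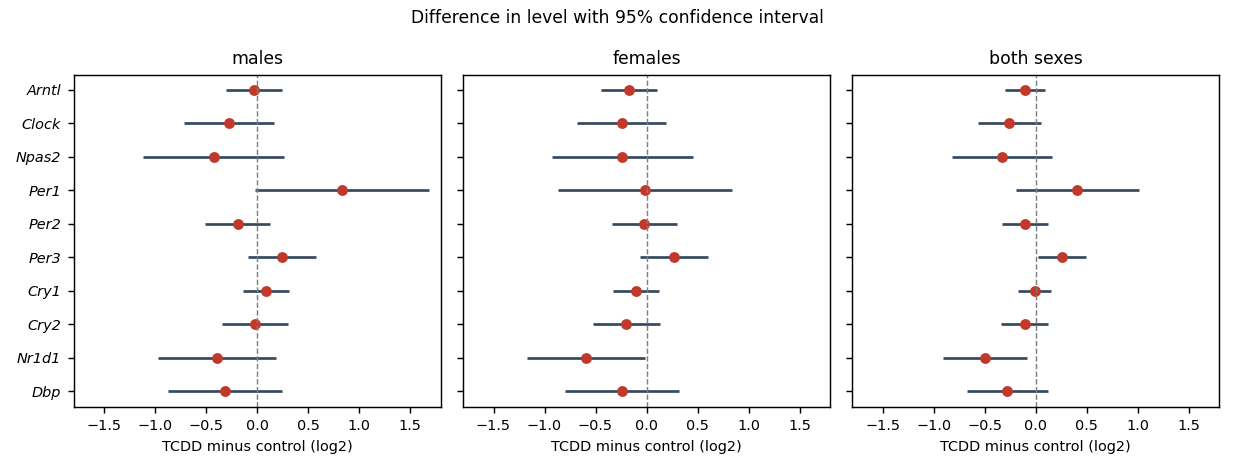
TCDD minus control difference in level (horizontal axis, log2) with its 95% confidence interval for the 10 genes in each sex and over both, from limma. The intervals of Nr1d1 in females and of Nr1d1 and Per3 over both sexes leave out 0 before adjustment, and the widest intervals belong to Per1.

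Nr1d1, the repressor arm of the loop, had the largest negative difference of the members over both sexes. Its probe is a 60-base oligonucleotide on the minus strand of chromosome 10 (chr10:87543165-87543519, rn4), and its letters cover 355 bases of genome. No annotation of rn4 was used here, so the exons are not named. Its sequence is shown because the member with the smallest p rests on this 1 probe.
Nr1d1 probe: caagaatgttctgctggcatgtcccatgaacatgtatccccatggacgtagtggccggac

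Nr1d1 stood at -5.05, -4.20 and -4.30 in male TCDD pituitaries, against -4.04, -4.29 and -4.03 in male controls. In females it stood at -4.57, -4.80 and -4.39 in TCDD pituitaries, against -3.68, -4.45 and -3.86 in controls. The groups overlapped in both sexes: male TCDD 2 lay above male control 2, and female TCDD 3 lay above female control 2. Group means were -4.52 ± 0.47 in male TCDD and -4.12 ± 0.14 in male control pituitaries, and -4.59 ± 0.20 in female TCDD and -3.99 ± 0.40 in female control pituitaries (SD, n = 3 each). The difference was -0.40 in males (95% interval -0.98 to 0.18, adjusted p = 0.522) and -0.59 in females (interval -1.17 to -0.015, adjusted p = 1.0). Without male TCDD 1 the male difference was -0.13. Over both sexes it was -0.50 ± 0.18 (SE), a change in level of -29.1%, with an interval of -0.91 to -0.09 and an adjusted p of 0.67 in limma. Nr1d1 therefore did not pass the test.

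The Nr1d1 difference kept its sign over both sexes in all alternatives run, and its size moved. It was -0.28 with normexp background correction, -0.40 with the ganglion signal as a covariate and -0.65 without the 6 arrays with ganglion signal, where 1 TCDD and 2 control arrays are left for each sex. With slide as a fixed block it was -0.83. Within slide 1 male TCDD 1 differed from the 3 male controls by -0.93, and within slide 3 the 3 female TCDD arrays differed from female control 3 by -0.73. On the ganglion arrays Nr1d1 lay between -5.05 and -4.20 and on the others between -4.80 and -3.68, so the sets overlapped. The part of the ganglion signal in its difference was not tested beyond these values.

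Dbp, the D-box activator whose gene is a direct output of the clock, was measured by 3 probes on chromosome 1 (chr1:96178064-96178482, rn4, plus strand). Dbp stood at 1.47, 2.20 and 2.60 in male TCDD pituitaries, against 2.51, 2.26 and 2.45 in male controls. In females it stood at 2.06, 2.25 and 2.35 in TCDD pituitaries, against 2.69, 2.08 and 2.60 in controls. Male TCDD 1 was the lowest of all 12 arrays, and the groups overlapped in both sexes. The difference was -0.32 in males and -0.24 in females. Averaged over the sexes it was -0.28 ± 0.18 (SE, interval -0.67 to 0.12, adjusted p = 0.67). The 3 probes gave -0.28, -0.30 and -0.28 over both sexes, and they ran together over the arrays, with Pearson r of 0.98 to 1.0 within the 6 ganglion arrays and of 0.90 to 0.97 within the other 6. Without male TCDD 1 the difference was -0.0076 in males and -0.12 over both sexes. With the ganglion signal as a covariate the difference over both sexes was -0.11, and without the ganglion arrays it was -0.14. Over the settings other than leaving out 1 array it ran from -0.65 to -0.11. With slide as a fixed block the male difference was larger, at -0.93. That value rests on male TCDD 1, the only male TCDD array on a slide with male controls.

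**Figure D3:**
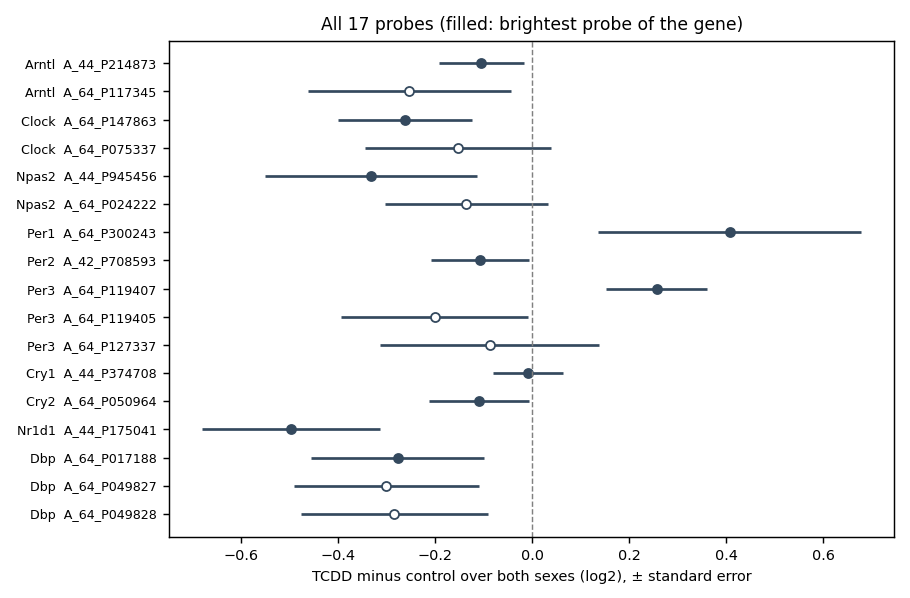
TCDD minus control over both sexes (horizontal axis, log2, with its standard error) for all 17 probes of the 10 genes, with the brightest probe of each gene filled. The 3 Dbp probes lie between -0.30 and -0.28, whereas the 3 Per3 probes lie at 0.26, -0.09 and -0.20.

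Per1 had the largest positive difference of the members over both sexes. PER1 is an inhibitor of the clock's activating pair, and the gene is also known to respond within hours to glucocorticoids and cyclic AMP. Its 1 probe lies on chromosome 10 (chr10:55866200-55866259, rn4, plus strand) and is shown because the whole difference rests on it.
Per1 probe: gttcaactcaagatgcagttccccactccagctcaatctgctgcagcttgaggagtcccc

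Per1 stood at -3.84, -4.15 and -5.40 in male TCDD pituitaries, against -5.50, -5.01 and -5.37 in male controls. In females it stood at -5.01, -5.99 and -5.64 in TCDD pituitaries, against -5.61, -5.40 and -5.58 in controls. Male TCDD 1 and 2 were higher than any other array, while male TCDD 3 lay among the controls. The mean was -4.46 ± 0.83 in male TCDD and -5.29 ± 0.25 in male control pituitaries (SD, n = 3 each). The difference was 0.83 in males (interval -0.03 to 1.68, adjusted p = 0.505 in limma) and -0.02 in females (interval -0.87 to 0.84, adjusted p = 1.0). It was thus 1.78-fold in males without passing the test. The Per1 levels are not far above the floor, since the lowest level well above background was between -6.88 and -6.31 over the arrays.

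The Per1 difference between the sexes, male minus female, was 0.84 ± 0.54 (SE, interval -0.36 to 2.05, adjusted p = 0.88), the largest of the members and not called. Of the 10 members 0 were called in that comparison, where 0% of all genes passed and 868 genes (4.48%) had an unadjusted p below 0.05. On the 6 ganglion arrays Per1 lay between -5.64 and -3.84, and on the other 6 between -5.99 and -5.37. Over both sexes the difference was 0.41 on all arrays, 0.14 with the ganglion signal as a covariate and -0.18 without the ganglion arrays, so its direction turned. In males the value dropping male TCDD 1 was 0.52, that dropping male TCDD 3 was 1.30, and that dropping all ganglion arrays was 0.03. Normexp background correction gave 0.28 in males, and slide as a fixed block gave 1.45, which again rests on male TCDD 1.

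Per2 and Per3 encode the other inhibitors of the PER family. Per2 stood at -3.20, -3.0 and -3.08 in male TCDD pituitaries, against -2.97, -2.95 and -2.79 in male controls, with no overlap. It was the only member with all male TCDD arrays on 1 side of the controls, and 5.92% of all genes were so placed below and 8.54% above. The difference in males was -0.19 (interval -0.51 to 0.13, adjusted p = 0.545). In females Per2 stood at -3.15, -2.67 and -2.86 in TCDD pituitaries, against -2.92, -3.03 and -2.67 in controls, a difference of -0.02 with overlapping groups. Its probe was printed 10 times on each array, and the SD among these spots was 0.0454 to 0.0760 on the log2 scale, below the 0.10 to 0.24 among the arrays of a group.

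Over both sexes and in males, Per3 had a positive difference by its brightest probe only. That probe stood at -3.19, -3.39 and -3.71 in male TCDD pituitaries, against -3.56, -3.74 and -3.71 in male controls. In females it stood at -3.35, -3.42 and -3.51 in TCDD pituitaries, against -3.81, -3.79 and -3.51 in controls. The groups overlapped in males, and in females by a narrow margin, since female control 3 lay just above female TCDD 3. The difference over both sexes was 0.26 ± 0.11 (SE, interval 0.02 to 0.49, adjusted p = 0.67 in limma). The second probe, whose 60 bases on chromosome 5 (chr5:168152839-168152898, rn4, minus strand) abut the first with a gap of 0 bases, gave -0.09 ± 0.23 over both sexes (SE), with -0.36 in males and 0.19 in females. The third, 2454 bases from the second, gave -0.20 ± 0.19 (SE). Within the 6 ganglion arrays the first probe had a Pearson r of -0.25 and -0.32 with the other two, and within the other 6 arrays 0.11 and 0.65, so the probes of Per3 do not give 1 picture. Without the ganglion arrays the brightest probe's difference was 0.08.

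Arntl, named Bmal1 in the current rat annotation, encodes the partner shared by CLOCK and NPAS2. It stood at -1.38, -1.39 and -1.29 in female TCDD pituitaries, against -1.07, -1.26 and -1.21 in female controls, with no overlap. It was the only member with all female TCDD arrays on 1 side, and 5.48% of all genes were so placed below and 1.48% above. The difference in females was -0.18 ± 0.12 (SE, interval -0.45 to 0.10, adjusted p = 1.0). In males Arntl stood at -1.69, -1.38 and -1.16 in TCDD pituitaries, against -1.42, -1.41 and -1.30 in controls, and male TCDD arrays were both the lowest and the highest of the 6. The difference there was -0.03, and it turned to 0.10 without male TCDD 1 and to 0.20 without the ganglion arrays. A second, dimmer probe gave -0.25 ± 0.21 (SE) over both sexes, and the first gave -0.11 ± 0.09 (SE).

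Clock and Npas2 encode the DNA-binding partners of BMAL1. They were the 2 of 10 members whose brightest probe separated the arrays by ganglion signal, beside 7.68% of all genes in the same direction and 7.97% in the other. These probes are shown because that separation rests on them and was not seen with the second probe of either gene. The Clock probe lies on chromosome 14 (chr14:34243744-34243803, rn4, plus strand) and the Npas2 probe on chromosome 9 (chr9:38433884-38433943, rn4, plus strand).
Clock probe: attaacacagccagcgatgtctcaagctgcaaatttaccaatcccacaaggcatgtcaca
Npas2 probe: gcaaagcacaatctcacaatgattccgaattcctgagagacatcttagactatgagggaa

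By its brightest probe Clock lay between -4.43 and -3.93 on the 6 ganglion arrays and between -3.84 and -3.56 on the other 6. Npas2 lay between -4.46 and -3.77 on the ganglion arrays and between -3.54 and -3.09 on the others. Neither of these probes overlapped between the sets, and of all genes 7.68% lay lower on all ganglion arrays and 7.97% higher. The other 8 members overlapped. The second Clock probe lay between -6.20 and -5.67 on the ganglion arrays and between -6.18 and -5.21 on the others, and the second Npas2 probe between -4.19 and -3.46 and between -3.89 and -3.11. These second probes thus overlapped between the sets, and their Pearson r with the first probe was -0.476 for Clock and -0.244 for Npas2 within the ganglion arrays, against 0.833 and 0.551 within the others. Means of other tissue markers reached lower values on the ganglion arrays, with overlap between the sets. That of the 15 anterior pituitary markers lay between -1.44 and -0.23 on the ganglion arrays and between -0.57 and 0.15 on the others. For 8 markers of hypothalamus and posterior lobe the ranges were -4.11 to -3.68 and -3.71 to -3.32. For 4 markers of endothelium they were -1.375 to -0.725 and -0.727 to -0.523, so the sets barely overlapped. Markers of skeletal muscle (-4.84 to -3.64 and -4.41 to -2.94), erythroid cells (4.65 to 5.25 and 4.97 to 5.55) and the suprachiasmatic nucleus (-5.33 to -4.38 and -4.95 to -4.39) overlapped widely. The part of these cells in the Clock and Npas2 values was not tested. In bulk tissue fewer cells of a type and less RNA per cell cannot be told apart.

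Clock stood at -4.31, -4.06 and -3.80 in male TCDD pituitaries, against -3.84, -3.93 and -3.56 in male controls. In females it stood at -4.43, -3.83 and -4.11 in TCDD pituitaries, against -3.76, -4.10 and -3.78 in controls. The arrays without ganglion signal were the highest of each group. Its difference over both sexes was -0.26 ± 0.14 (SE, interval -0.57 to 0.05, adjusted p = 0.67). That difference was -0.13 with the ganglion signal as a covariate and -0.08 without the ganglion arrays. In males Clock differed by -0.28 on group means and by -0.53 with slide as a fixed block. That larger difference rests on male TCDD 1, a ganglion array, and of the male controls only male control 2 is one. The dimmer Clock probe gave -0.15 ± 0.19 (SE).

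Npas2 stood at -4.46, -3.92 and -3.37 in male TCDD pituitaries, against -3.09, -3.83 and -3.54 in male controls. In females it stood at -3.97, -3.28 and -3.77 in TCDD pituitaries, against -3.32, -3.83 and -3.16 in controls. The groups overlapped in both sexes. Its difference over both sexes was -0.33 ± 0.22 (SE, interval -0.82 to 0.16, adjusted p = 0.67), against -0.20 without male TCDD 1, -0.10 with the covariate and -0.05 without the ganglion arrays. In males Npas2 differed by -0.43 on group means and by -0.97 with slide as a fixed block, which again rests on male TCDD 1, a ganglion array. The second Npas2 probe gave -0.14 ± 0.17 (SE) over both sexes.

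**Figure D4:**
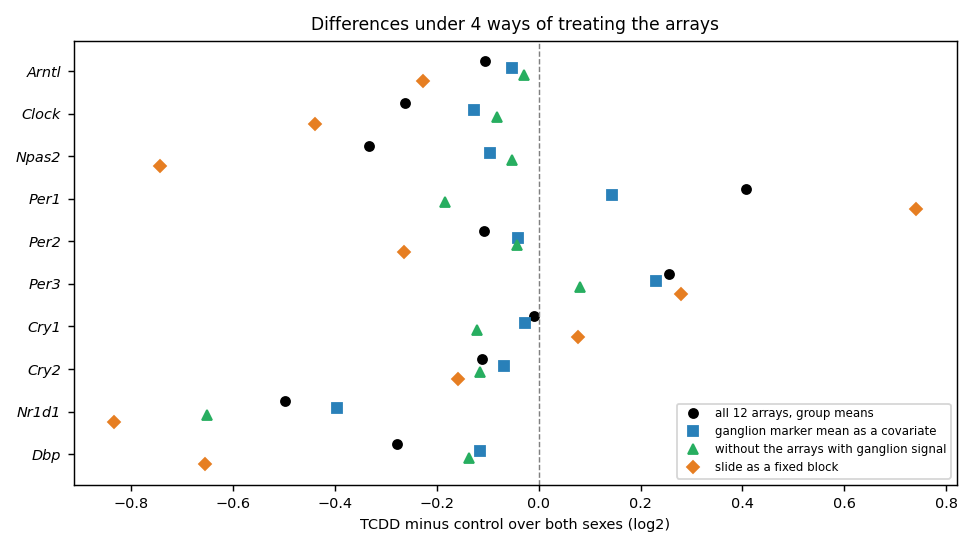
TCDD minus control over both sexes (horizontal axis, log2) for each gene on all 12 arrays, with the ganglion signal as a covariate, without the 6 arrays with ganglion signal, and with slide as a fixed block. Npas2 lies at -0.33, -0.10, -0.05 and -0.74 in that order, Per1 changes sign to -0.18 without the ganglion arrays, and Nr1d1 lies below 0 in all 4.

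Cry1 and Cry2 encode the cryptochromes, the partners of the PER proteins in the inhibitory complex. Cry1 had the narrowest interval of the members. It lay between -0.74 and -0.34 in TCDD pituitaries (median -0.60) and between -0.73 and -0.49 in controls (median -0.55). Its difference over both sexes was -0.009 ± 0.072 (SE), with an interval of -0.17 to 0.15 and an adjusted p of 0.966. Cry2 lay between -4.24 and -3.87 in TCDD pituitaries (median -4.04) and between -4.14 and -3.63 in controls (median -3.99), with a difference of -0.11 ± 0.10 (SE, interval -0.34 to 0.12, adjusted p = 0.698). For both genes the groups overlapped in each sex.

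Among controls, males and females differed by between -0.22 (Cry2) and 0.24 (Per1) over the 10 members. Of these, 0 were called in limma, where 0.0103% of all genes were, and 0 had an unadjusted p below 0.05 (5.51% of all genes). The differences of the TCDD effect between the sexes were between -0.19 (Npas2) and 0.84 (Per1), and 5 of 10 were below 0. The intervals were wide: that of Nr1d1 was -0.62 to 1.02 and that of Dbp -0.87 to 0.72.

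Nr1d1, Dbp and Arntl made up the 3 pairs of members with r above 0.5 in both sets of arrays. No pair passed adjustment, which sets of 6 arrays could hardly allow. These pairs were picked after their values were seen, and other pairs had a higher r in 1 set alone: Npas2 and Dbp had 0.969 within the ganglion arrays and 0.096 within the others, and Cry1 and Nr1d1 had -0.908 and 0.86. Because the ganglion signal splits the arrays, correlations were taken within each set of 6, over 45 pairs of members and 2 sets. Nr1d1 and Dbp had a Pearson r of 0.932 within the ganglion arrays (exact permutation p = 0.0278, Spearman rho 0.771, exact p = 0.103) and of 0.852 within the others (exact permutation p = 0.0417, Spearman rho 0.60, exact p = 0.242). Leaving out the 2 arrays farthest from the median of Nr1d1 gave r of 0.739 and -0.136 over the 4 arrays left, so the relation rests on those arrays in the second set. Arntl and Dbp had r of 0.862 and 0.814 (exact permutation p = 0.0833 and 0.0375), with rho of 0.314 and 0.829 (exact p = 0.564 and 0.0583), and without the 2 arrays farthest in Arntl r was 0.552 and 0.972. Arntl and Nr1d1 had r of 0.78 and 0.575 (exact permutation p = 0.122 and 0.233), with rho of 0.0857 and 0.543 (exact p = 0.919 and 0.297), and without the 2 farthest arrays r was -0.232 and 0.622. After Benjamini-Hochberg adjustment over the 90 Pearson correlations the lowest p was 0.298, so 0 pairs passed. With 6 arrays the exact permutation p cannot be below 0.00278. Per2 and Dbp reached that p by rank within the ganglion arrays (rho of 1), and it adjusted to 0.25. The adjusted values therefore cannot decide whether any pair is related. Of the 45 pairs 3 had r above 0.5 in both sets, 4 had r below -0.5 in both and 23 had opposite signs. Each set mixes TCDD and control arrays of both sexes.

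**Figure D5:**
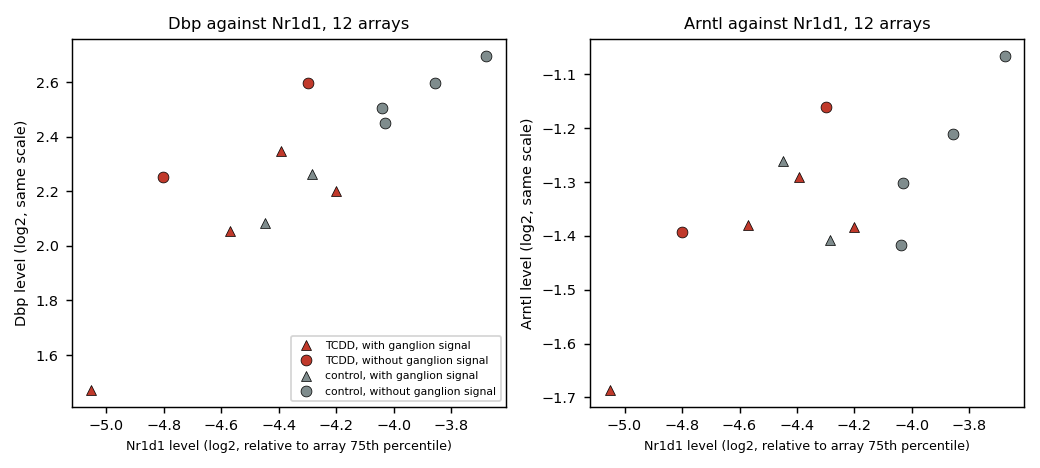
Dbp (left) and Arntl (right) levels against the Nr1d1 level on the 12 arrays (both axes log2 over the 75th percentile of the array), with TCDD arrays in red, control arrays in grey, and triangles for arrays with ganglion signal. Male TCDD 1 lies lowest in all 3 genes, at -5.05 for Nr1d1, 1.47 for Dbp and -1.69 for Arntl.

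Genes whose levels were most like those of Arntl and of Nr1d1 were ranked by the lower of the 2 Pearson correlations within the sets of 6 arrays. Only genes with a gene symbol, apart from provisional numbered names, were ranked. For Arntl the first 3 were Qsox2, Htatsf1 and Topors, with lower values of 0.952, 0.951 and 0.951. For Nr1d1 they were Fgf16, Mptx1 and Cela3b, with 0.914, 0.912 and 0.908. None of these 6 is a member or on the list of other clock genes, and the ranking has no test. They are the highest of many genes over few arrays, so the size of r is no evidence of a relation.

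Promoters are shown for 3 of the genes that hold matches of clock elements, so they do not stand for the other members. RefSeq promoter sequences (GRCr8 assembly, 250 bases before and 50 after the annotated start) were matched for 9 of the 10 genes, as 11 promoters. Motifs were searched on both strands and were chosen with these promoters in view. The Arntl promoter holds 2 matches of the ROR element, the letters AAAGTAGG followed by T, any base and A, in capitals, 56 and 20 bases before the start. That string was written to cover both Arntl matches, and looser forms of the element were not searched. It occurs in 12 of 33469 promoters (0.0359%), and Arntl is the only member with it. Its rarity therefore says nothing about ROR elements in general or in other members.
Arntl (Bmal1) promoter, chr1:176766078-176766377, plus strand: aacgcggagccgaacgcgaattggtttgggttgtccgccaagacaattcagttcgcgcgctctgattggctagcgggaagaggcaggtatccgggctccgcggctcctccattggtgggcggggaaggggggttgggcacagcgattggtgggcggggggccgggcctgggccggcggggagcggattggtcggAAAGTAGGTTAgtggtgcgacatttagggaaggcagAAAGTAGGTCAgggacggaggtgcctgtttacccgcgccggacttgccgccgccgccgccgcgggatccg

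The Per2 promoter holds the D-box TTATGTAA 192 bases and the E-box variant CACGTT 62 bases before the start, both in capitals. The D-box occurs in 0.893% of promoters and the variant in 4.83%.
Per2 promoter, chr9:99496944-99497243, minus strand: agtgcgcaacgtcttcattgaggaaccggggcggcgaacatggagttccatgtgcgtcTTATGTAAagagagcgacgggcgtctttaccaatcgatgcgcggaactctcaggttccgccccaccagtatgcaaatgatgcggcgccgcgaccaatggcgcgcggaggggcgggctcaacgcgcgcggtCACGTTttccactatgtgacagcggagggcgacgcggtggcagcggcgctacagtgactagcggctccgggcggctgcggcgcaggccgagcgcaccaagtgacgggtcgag

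Nr1d1 has 2 promoters in the table. The first, at the downstream start, holds the E-box CACGTG, which is its own reverse complement, 191 bases before the start (6.42% of promoters). The second holds the variant as AACGTG, the reverse complement of CACGTT, 174 bases before its start.
Nr1d1 promoter 1, chr10:84229405-84229704, minus strand: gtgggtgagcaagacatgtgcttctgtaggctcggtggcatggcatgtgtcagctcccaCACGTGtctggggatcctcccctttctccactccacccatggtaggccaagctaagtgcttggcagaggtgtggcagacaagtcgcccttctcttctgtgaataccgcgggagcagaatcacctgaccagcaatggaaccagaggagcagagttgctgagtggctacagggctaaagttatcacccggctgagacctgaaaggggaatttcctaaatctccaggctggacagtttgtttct
Nr1d1 promoter 2, chr10:84231763-84232062, minus strand: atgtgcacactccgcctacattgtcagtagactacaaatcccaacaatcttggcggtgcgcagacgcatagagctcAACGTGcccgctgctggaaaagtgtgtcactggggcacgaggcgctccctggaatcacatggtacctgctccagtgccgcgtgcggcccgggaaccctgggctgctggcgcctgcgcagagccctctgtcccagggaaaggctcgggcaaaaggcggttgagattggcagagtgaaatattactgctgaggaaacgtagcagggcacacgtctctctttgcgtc

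The capitals of different motifs do not overlap. Cry2 also has the E-box variant, 212 bases before its start. Of the 11 member promoters, 1 holds the E-box, 3 hold the variant and 1 holds the D-box. The promoters of Per1, Per3 and Dbp hold neither the E-box nor the variant. The core letters of the aryl hydrocarbon receptor's element, GCGTG, occur in 4 of the 11 member promoters (Npas2, Per3, Nr1d1 promoter 2 and Dbp), and in 29.7% of all promoters. The array that measured Nr1d1 and Arntl does not tell which start was used, and a match of letters is not a binding site.

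Of 22 other genes of the clock, 19 were measured, and 0 were called in either sex or over both. Over both sexes 11 of the 19 (57.9%) were lower in TCDD pituitaries, with a median of -0.07, against 55.4% of all genes and a median of -0.02. At an unadjusted p below 0.05 there was 1 of 19 in females (5.26%, against 2.64% of all genes), Rora, and 1 of 19 over both sexes (5.26%, against 6.45%), Ciart, a repressor of the CLOCK and BMAL1 pair, with -0.60 ± 0.26 (SE, adjusted p = 0.67 in limma). Ciart was well above background on 2 of 6 TCDD arrays and 5 of 6 control arrays, and on 0 of the 3 male TCDD arrays, so its male TCDD value is a bound only. Among the nuclear receptors that share ROR elements with Nr1d1, its close relative Nr1d2 differed by -0.25 ± 0.22, the activator Rora by -0.29 ± 0.18 and Rorb by -0.47 ± 0.30 (SE, adjusted p between 0.67 and 0.688). Rora differed by -0.60 in females (adjusted p = 1.0) and by 0.02 in males.

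The other D-box genes had negative differences that did not pass. Among relatives of Dbp, Tef differed by -0.13 ± 0.08 and Hlf by -0.27 ± 0.49 over both sexes (SE), and the D-box repressor Nfil3 by -0.07 ± 0.11. Hlf had the largest standard error of the 19 genes, at -6.35, -2.69 and -4.24 in male TCDD pituitaries, against -3.85, -4.40 and -4.42 in male controls. The E-box repressors Bhlhe40 and Bhlhe41 differed by -0.26 ± 0.19 and 0.07 ± 0.15. None of these passed the test, and their adjusted p lay between 0.67 and 0.864.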

How the data were processed

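Total RNA of 12 fetal pituitary samples was amplified, labelled with Cy3 and hybridised to 1-colour arrays, per the labels' protocols. The scanner files as deposited give linear intensity for each spot. They come from Agilent Feature Extraction 10.7.1.1 per the file headers, and from 9.5.1.1 per the submitters' processing notes. A second table of intensity, also deposited, has a median of 83.5 in every column, in the same rank order as the scanner values (Spearman 1). Its sorted columns differ by at most 0.000461 on the log2 scale from those of the first array, as quantile normalization leaves them, and 1-colour values have no direction to settle.

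Processed signals were taken as log2 minus each array's 75th percentile, after control and outlier spots were left out. A probe was kept if well above background on at least 3 of 12 arrays with at least 10 values. Each array had 42877 spots, of which 75.1% to 78.4% were well above background and 0 saturated, and replicate spots varied by 3.56% to 4.29%; the number of arrays limits the precision. Probes took RefSeq symbols by accession (17877) or symbol (2639), and the others kept the files' names. The test was limma 3.58.1 (R 4.3.3), with a mean for each group over the 12 arrays and an intensity trend, and adjusted p-values were held against 0.05. The fit was tested on simulated data with independent noise. Those data held no shared ganglion signal and no slide effect, so that test does not cover them.

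All members were named, with the other clock genes that passed, the 4 with the largest difference over both sexes and counterparts of members. The members and lists were chosen with earlier results of these data known. Replicate numbers of the titles were not taken as pairs in the main fit. Deviations from group means on TCDD and control arrays of the same number correlated at -0.22, 0.344 and 0.441 in males. In females the values were -0.485, -0.695 and -0.375. Those of male and female controls correlated at 0.127, 0.751 and 0.351. The deviations still hold the ganglion signal, so these correlations cannot settle whether arrays of the same number belong together. Alternatives covered background correction, normalization, the dim filter, slide, replicate number, the variance model, ganglion signal and leaving out each array. The ranking of genes by likeness to Dbp is not reported here.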

Additional observations from a re-analysis of the deposited data

How the results depend on the processing

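No core clock gene passed the threshold in limma under any of the 16 settings or the 12 fits that left out 1 array, and the lowest adjusted p among the 880 values was 0.0611. Of these values 827 kept their direction. Many of the 827 could not turn, because the same probe levels and group means were fitted again. This holds for no dim filter, probes bright on all arrays, the probe level, each sex alone, the replicate block and no variance trend. The other 53 values changed sign, all for differences that were not called. With the authors' deposited value table the female differences were 0.0396 for Per1 and 0.0067 for Per2. With slide as a fixed block they were 0.0683 for Cry2 in males, 0.0315 for Per1 in females and 0.0773 for Cry1 over both sexes, and the differences between the sexes were -0.17 for Arntl, -0.20 for Nr1d1 and 0.40 for Per3. With slide as a random block (correlation 0.185) they were 0.014 for Cry2 in males, 0.0024 for Cry1 over both sexes and 0.10 for Per3 between the sexes. Within slide 1 Cry2 was 0.0683 in males, and within slide 3 Per1 was 0.0315 in females. Without the 6 ganglion arrays the male differences were 0.20 for Arntl, -0.0257 for Cry1, 0.12 for Dbp and -0.0763 for Per3, Per2 was 0.12 in females, Per1 -0.18 over both sexes and Dbp 0.51 between the sexes. With the ganglion signal as a covariate they were 0.0311 for Arntl and 0.0279 for Cry2 in males, 0.0301 for Per2 in females and 0.0248 for Clock between the sexes. Leaving out 1 array gave ranges across 0 in males for Arntl (-0.16 to 0.10), Cry1 (-0.0158 to 0.16) and Cry2 (-0.0727 to 0.0254). It did so in females for Per1 (-0.28 to 0.21) and Per2 (-0.13 to 0.11), and over both sexes for Cry1 (-0.06 to 0.026). Between the sexes it did so for Clock (-0.19 to 0.11), Dbp (-0.33 to 0.23), Npas2 (-0.46 to 0.0796) and Per3 (-0.15 to 0.11). The cause of these changes of sign was not tested. The fit with a replicate block left every member difference as it was and called 0 members, with 2 genes of all called in each sex and over both. Over all genes the number called over both sexes was 4, against 15 with slide as a fixed block, 11 with the covariate, 6 with no dim filter and 0 without the ganglion arrays, where fewer arrays were fitted. In males it was 2, against 27 with slide as a fixed block, 277 within slide 1, whose lone TCDD array was assumed to vary like the controls, 4 with no variance trend or with the covariate, 1 with normexp, in males alone or with probes bright on all arrays, and 0 without the ganglion arrays. In females it was 2, against 3 with the covariate, 1 with normexp or with bright probes, and 0 within slide 3 or without the ganglion arrays. For the difference between the sexes it was 0, against 6 with slide as a fixed block. Among controls, males against females, it was 2, against 10 with slide as a fixed block, 1 with normexp or with bright probes, and 0 without the ganglion arrays. Leaving out 1 array gave 4 to 9 genes over both sexes, the most without male TCDD 1, and 2 to 3 in each sex.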
